A study of Mus musculus with 6 samples.

Results

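The 10 genes described here belong to the beta-catenin branch of Wnt signalling and were measured in ureteric bud cells sorted from E15.5 mouse kidneys: the scaffold genes Axin1 and Axin2, the naked cuticle genes Nkd1 and Nkd2, the DNA-binding factors Lef1, Tcf7l1 and Tcf7l2, the zinc finger factor Sp5, and the secreted inhibitors Notum and Dkk1. These 10 genes were taken by name from the 19296 genes measured, and each was represented by 1 probe set with 1 gene symbol, so no choice between probe sets was needed. Of the 10, 4 fell in Dicer mutant cells (Axin2, Nkd1, Nkd2 and Lef1), 1 rose (Dkk1) and 5 did not pass the test (Axin1, Tcf7l1, Tcf7l2, Sp5 and Notum). By the same test 13.9% of all genes measured fell and 11.8% rose.

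When Wnt ligand is absent, a complex built on an Axin scaffold with Apc and the kinases Gsk3 and casein kinase 1 marks beta-catenin for destruction. When ligand binds Frizzled and Lrp5 or Lrp6, that complex is held back, and beta-catenin enters the nucleus and binds factors of the TCF/LEF family, which sit on target genes with Groucho-type corepressors in its absence. Many targets encode inhibitors of the same pathway, so Axin2, Nkd1, Sp5, Notum and Dkk1 are widely read as feedback genes. In the kidney, beta-catenin in the ureteric bud is needed for branching and keeps bud cells from differentiating early, and Wnt ligands of the bud induce nephrons in the mesenchyme around it.

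RNA was profiled on Affymetrix whole-transcript arrays, 3 with control cells and 3 with Dicer mutant cells. The mutant genotype is written Dicerc/-; Hoxb7Cre; Rosa26YFP: a conditional and a null Dicer allele, a Cre transgene expressed under a Hoxb7 promoter in the ureteric bud and its derivatives, and a YFP reporter that Cre switches on. The control is labelled wild type, although its cells were sorted on YFP as well. Whether control cells carried Cre and the reporter is not given. An effect of Cre thus cannot be told apart from that of the Dicer mutation. Both groups had a mixed strain background, and whether an array held 1 embryo or several pooled is not given, which means that p-values cover only the spread seen between these 6 samples. Dicer makes mature miRNAs from their hairpin precursors, and the comparison asks which transcripts differ between Dicer mutant and control bud cells.

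Values are log2 expression values, on which a difference of 1 is a 2-fold change, and "past the threshold" means an adjusted p under 0.05 in limma's moderated test over all 19296 genes. Dicer1, the targeted gene, had a mean of 10.31 ± 0.06 on control arrays and 9.72 ± 0.08 on mutant arrays (SD, n = 3 each), and was lower on each mutant array than on any control array. Its mutant signal was 66.3% of control, and how far the sorted cells had lost Dicer or mature miRNAs was not tested. Of 12 ureteric epithelium markers, 12 lay above the median of all probe sets (7.51), of which 6 fell, 1 rose (Wnt9b, log2 fold change 1.42) and 5 did not pass (median -0.17). Their mean level without Wnt9b (left out after its value was seen, as Six2 is further on) was 12.01 to 12.02 on the control arrays and 11.83 to 11.87 on the mutant arrays. With Wnt9b it was 11.81 to 11.83 against 11.77 to 11.81. Stroma markers averaged 6.28 to 6.46 in control and 6.31 to 6.43 in mutant cells, with 1 of 10 above that median and 0 past the threshold. Endothelial (8 measured), blood and immune (6 measured) and podocyte (4 measured) markers had 0 above it. Of the endothelial markers 0 passed the threshold (median -0.22). In the blood and immune list 1 fell and 0 rose (median -0.08), and in the podocyte list 1 fell and 0 rose (median -0.04). RNA of a bulk sample cannot tell fewer cells of a type from less RNA per cell.

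In either direction 25.8% of all genes passed the threshold, 11.8% higher and 13.9% lower. Among genes brighter than the median these shares were 19.3% and 20.3%, and 39.6% passed in either direction, against 11.9% of dimmer genes. Of the 6 brighter genes described here 3 passed, and of the 4 dimmer ones 2 passed. The 4 of 10 genes that fell and the 1 of 10 that rose stand against those shares. The 10 genes had a median log2 fold change of -0.16, against -0.05 over all genes. Control and mutant arrays did not overlap for 7 of the 10 genes, whereas 42.5% of all genes showed such separation.

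**Figure D1:**
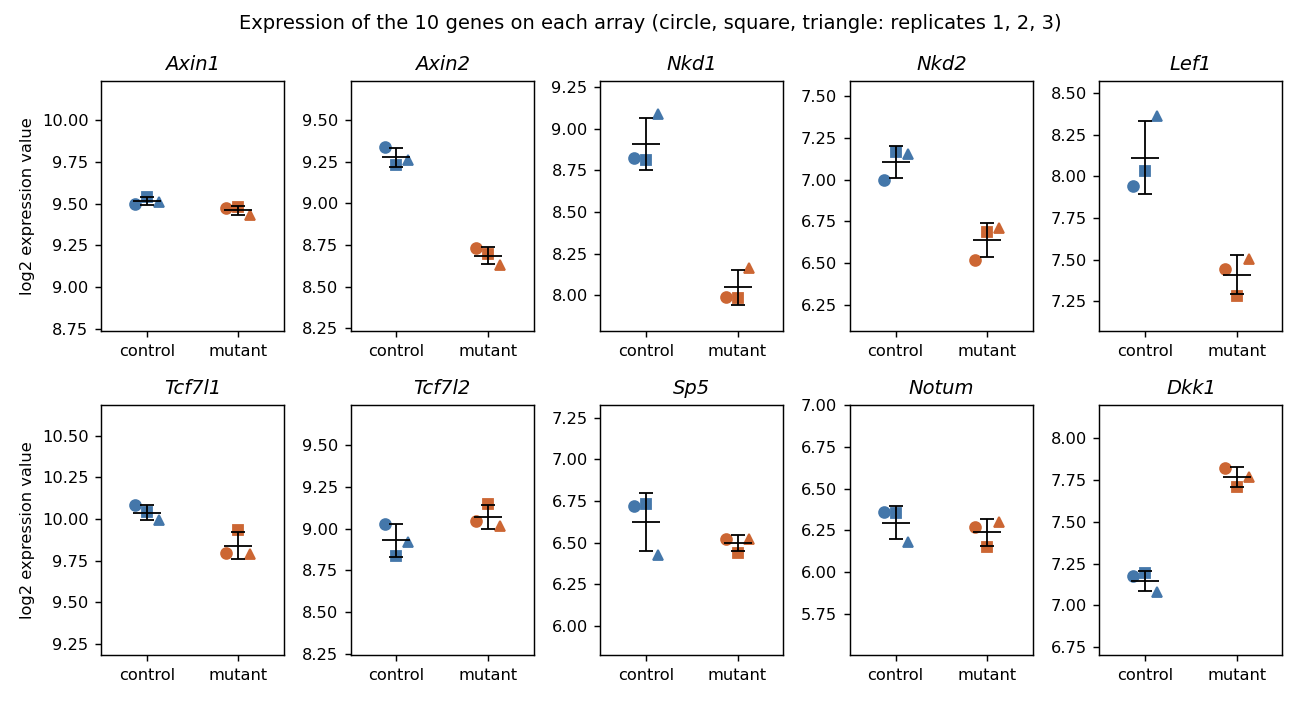
Log2 expression value (vertical axis, a span of 1.5 log2 units in every panel) of the 10 genes on each control (blue) and mutant (orange) array, with the group mean and SD in black; circles, squares and triangles are replicates 1, 2 and 3. Axin2, Nkd1, Nkd2 and Lef1 lie lower and Dkk1 higher on every mutant array, while Tcf7l2, Sp5 and Notum overlap between groups.

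Axin2, the scaffold gene that beta-catenin itself induces and that is used as a readout of the pathway, measured 9.34, 9.23 and 9.26 on control arrays 1, 2 and 3 and 8.73, 8.70 and 8.63 on mutant arrays 1, 2 and 3. The lowest control array was thus higher than the highest mutant array by more than the SD of either group. This was a log2 fold change of -0.59, standard error 0.06 (limma, adjusted p = 0.00035), or 66.5% of the control signal. Permuting the 6 values exactly (two-sided) gave p = 0.1, the lowest p that 3 against 3 arrays can reach, and the same value was obtained for each of the other genes whose groups did not overlap.

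Axin1, the constitutive scaffold that does the same work in the destruction complex, measured 9.50, 9.54 and 9.51 on the control arrays and 9.47, 9.48 and 9.43 on the mutant arrays. All 3 mutant values were below the control values, but by little: the log2 fold change was -0.05, with a 95% interval of -0.17 to 0.06, and did not pass (limma, adjusted p = 0.48). The interval leaves room for a fall of 0.17 on the log2 scale, which is smaller than the nearest bound of the Axin2 interval, -0.45. Within each array the Axin2 value minus the Axin1 value was -0.24 ± 0.08 (SD, n = 3) in control and -0.78 ± 0.03 (SD, n = 3) in mutant cells, a change of -0.53 with a standard error of 0.05. An exact two-sided permutation test of that difference gave p = 0.1 (0.1 after adjustment over the 5 pairs of related genes compared), again the smallest possible.

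Nkd1 and Nkd2 encode naked cuticle proteins, which bind Dishevelled and dampen the signal downstream of the receptors. Nkd1 measured 8.82, 8.81 and 9.09 on the control arrays and 7.99, 7.98 and 8.17 on the mutant arrays. Its log2 fold change of -0.86 (standard error 0.09, limma, adjusted p = 0.00045) was the largest of the 10 in size, with a mutant signal of 55.1% of control. In both groups the third array was the highest for this gene, and without control replicate 3 the log2 fold change was -0.77.

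Nkd2 was dimmer than 7.51 in both groups. It measured 6.998, 7.163 and 7.157 on the control arrays and 6.520, 6.684 and 6.709 on the mutant arrays, which again did not overlap. It fell by a log2 fold change of -0.47 (standard error 0.08, limma, adjusted p = 0.00303). The Nkd1 value minus the Nkd2 value within an array changed by -0.39 (standard error 0.10) from control to mutant, with no overlap between groups (exact two-sided permutation p = 0.1, adjusted p = 0.1). RMA compresses changes of dim probe sets, so this value does not order the 2 falls. Whether Nkd2 lay above the background of the arrays is not known.

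Of the 3 DNA-binding factors, Lef1 moved most. Lef1, a mainly activating partner of beta-catenin and in many tissues a Wnt target itself, measured 7.94, 8.03 and 8.36 on the control arrays and 7.45, 7.28 and 7.51 on the mutant arrays. Control replicate 3 was the highest, as for Nkd1, and the groups did not overlap. The resulting log2 fold change was -0.70 (standard error 0.11, limma, adjusted p = 0.00316), or 61.5% of the control signal, and was -0.58 without control replicate 3. The mutant mean of 7.41 was below 7.51, and whether Lef1 lay above the background of the mutant arrays is not known.

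Tcf7l1, the family member best known as a repressor, was the brightest of the 10 probe sets in percentile terms (83.5 of all genes). It measured 10.08, 10.04 and 9.99 on the control arrays and 9.79, 9.93 and 9.79 on the mutant arrays, with no overlap. The log2 fold change of -0.20 (95% interval -0.34 to -0.06) missed the threshold by a narrow margin (limma, adjusted p = 0.0501). Small changes of procedure moved it across: it passed after quantile normalization (adjusted p = 0.0302), without mutant replicate 2 (0.0363) and with a variance trend (0.0115), and it did not pass after median centring (0.0754) or without mutant replicate 1 (0.168). Over its 13 alternatives the adjusted p in limma ran from 0.0115 to 0.168.

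Tcf7l2, which acts as the main partner of beta-catenin in gut epithelium, was the only DNA-binding factor of the 3 with a positive estimate. It measured 9.03, 8.84 and 8.92 on the control arrays and 9.05, 9.15 and 9.01 on the mutant arrays, and control replicate 1 lay above mutant replicate 3. Its log2 fold change was 0.14 with a 95% interval of -0.02 to 0.30 (limma, adjusted p = 0.184). The whole-transcript value covers all exons of the probe set, so isoforms of Lef1, Tcf7l1 and Tcf7l2 that lack the beta-catenin binding domain are not separated. The fourth family member, Tcf7, was not analysed here.

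Lef1 minus Tcf7l2 went from -0.82 ± 0.26 (SD, n = 3) to -1.66 ± 0.19 (SD, n = 3), a change of -0.84. Lef1 minus Tcf7l1 changed by -0.50 with a standard error of 0.19, and Tcf7l1 minus Tcf7l2 by -0.34 with a standard error of 0.05, and the first difference is the sum of the other two. Groups did not overlap for any of the 3, and each exact two-sided permutation test stood at the smallest possible value, p = 0.1 (adjusted p = 0.1 over the 5 pairs). The levels of different probe sets are not on 1 scale, so only the change of each difference is read here.

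**Figure D2:**
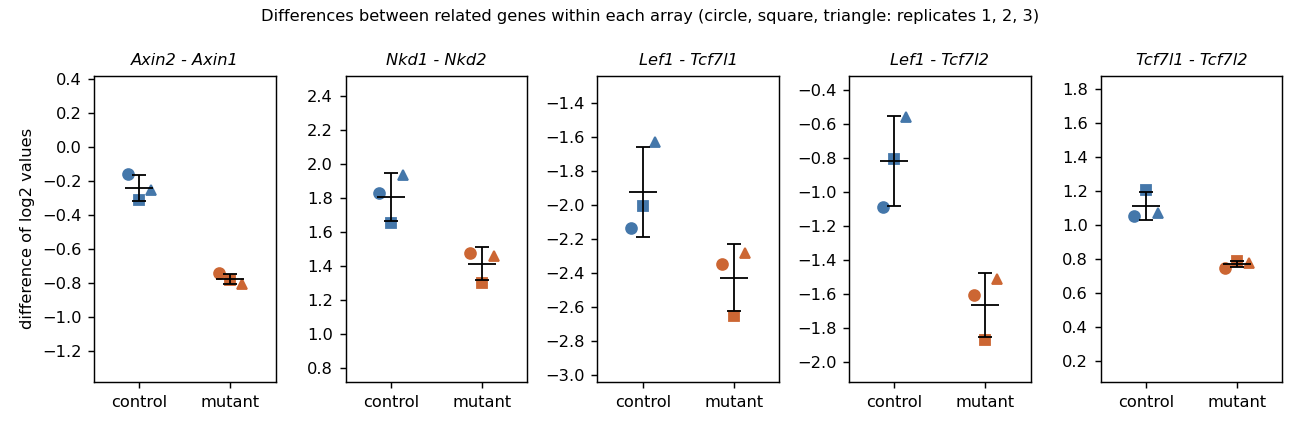
Difference between the log2 values of 2 related genes within each array (vertical axis, log2 units) in control (blue) and mutant (orange) cells, with the mean and SD in black; symbols are replicates 1 to 3. With each pair subtracted in the order shown, the changes run from -0.34 for Tcf7l1 minus Tcf7l2 to -0.84 for Lef1 minus Tcf7l2 (the sum of the other two TCF differences), without overlap between groups.

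Sp5, Notum and Dkk1 complete the feedback genes. Sp5, an Sp1-type factor that binds and damps Wnt target genes, measured 6.72, 6.73 and 6.42 on the control arrays and 6.52, 6.44 and 6.52 on the mutant arrays. Control replicate 3 was the lowest array of all and the groups overlapped. Sp5 had a log2 fold change of -0.13 (95% interval -0.33 to 0.08; limma, adjusted p = 0.334). Without control replicate 3 it was -0.23 and passed the threshold (adjusted p = 0.0343), so that array decides the call.

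Notum, a secreted enzyme that strips the lipid from Wnt ligands, was the dimmest of the 10. It measured 6.36, 6.35 and 6.18 on the control arrays and 6.27, 6.15 and 6.30 on the mutant arrays, which overlapped. Its log2 fold change was -0.06 (95% interval -0.22 to 0.11; limma, adjusted p = 0.605). Its sign turned after quantile normalization, where it was 0.03. The deposited table holds no detection call, so whether Sp5 and Notum were above the background of the arrays is not known, and their values give no evidence of expression in either group.

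Dkk1, a secreted protein that blocks the co-receptors Lrp5 and Lrp6, was the 1 gene of the 10 that rose. It measured 7.17, 7.19 and 7.08 on the control arrays and 7.82, 7.71 and 7.77 on the mutant arrays. Its group SDs, 0.06 each, were small beside the shift. Dkk1 thus rose by a log2 fold change of 0.62 (standard error 0.06, limma, adjusted p = 0.000316), a mutant signal of 154% of control. Control values were below 7.51 and mutant values above it. Whether the control values lay above the background of the arrays is not known, and RMA compresses changes of dim probe sets.

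**Figure D3:**
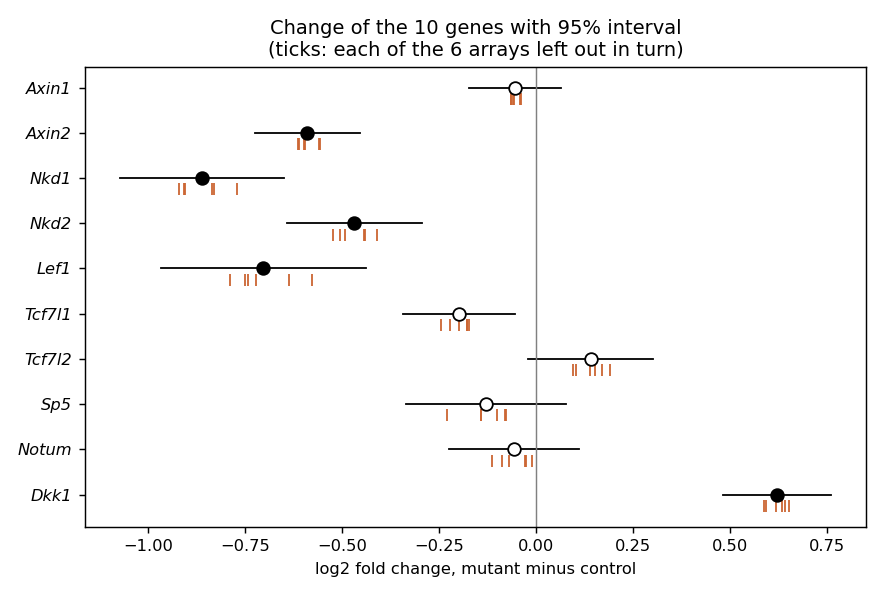
Log2 fold change, mutant minus control (horizontal axis), of the 10 genes with the 95% interval from limma; filled points passed an adjusted p of 0.05, and orange ticks give the value with each of the 6 arrays left out. The intervals of Axin2, Nkd1, Nkd2 and Lef1 lie below -0.29 and that of Dkk1 above 0.48, and the ticks of these 5 genes stay on the same side of 0.

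To set sequence beside these directions, the promoter of each gene was searched for the core of the TCF/LEF binding motif. The 4 spellings searched, on both strands, were CTTTGAA and CTTTGAT as well as CTTTGTA and CTTTGTT, and no spelling is contained in another or in its reverse complement. RefSeq promoters (build GRCm38.p6) were cut to the 250 bases before the transcript start, of which 14.8% of 32851 windows held at least 1 match and 1.43% held 2 or more. Of the 10 genes, 8 had a window, with 12 windows in all, and 4 of those 12 held a match. Matches stood in the windows of Dkk1 and Sp5 (2 each), in the fourth of 4 Lef1 windows and in the second of 2 Tcf7l2 windows (1 each), and none stood in those of Axin2, Nkd1, Nkd2 and Tcf7l1. Axin1 and Notum had no entry.

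The windows of the gene that rose, of the other gene with 2 matches and of the best-known feedback gene that fell are shown 5′ to 3′, with matches in capitals. They lie at chr19:30549497-30549746 (minus strand), chr2:70474673-70474922 (plus strand) and chr11:108920099-108920348 (plus strand) of GRCm38.p6.
Dkk1: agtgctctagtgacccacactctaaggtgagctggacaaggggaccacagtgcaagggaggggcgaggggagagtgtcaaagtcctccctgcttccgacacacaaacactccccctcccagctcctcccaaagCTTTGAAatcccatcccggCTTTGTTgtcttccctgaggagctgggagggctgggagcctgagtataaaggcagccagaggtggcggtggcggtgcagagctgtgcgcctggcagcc
Sp5: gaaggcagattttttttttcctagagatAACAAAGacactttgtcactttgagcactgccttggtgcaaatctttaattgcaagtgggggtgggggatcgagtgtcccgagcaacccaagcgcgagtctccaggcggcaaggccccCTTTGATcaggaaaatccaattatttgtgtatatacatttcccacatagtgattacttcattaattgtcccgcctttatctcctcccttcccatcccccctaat
Axin2: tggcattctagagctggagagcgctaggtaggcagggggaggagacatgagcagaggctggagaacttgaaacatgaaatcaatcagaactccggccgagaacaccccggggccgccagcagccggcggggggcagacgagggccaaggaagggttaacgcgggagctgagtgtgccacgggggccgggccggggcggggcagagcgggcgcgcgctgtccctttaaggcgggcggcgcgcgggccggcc
In the Dkk1 window CTTTGAA starts 117 bases and CTTTGTT 98 bases before the transcript start. In the Sp5 window AACAAAG, the reverse complement of CTTTGTT, starts 222 bases and CTTTGAT 104 bases before it. Of the genes with a match, Dkk1 rose, Lef1 fell, and Sp5 and Tcf7l2 did not pass. Of the genes with no match in these 250 bases, Axin2, Nkd1 and Nkd2 fell and Tcf7l1 did not pass. A match is a run of letters, not a measured binding site, and windows this short leave out introns and distal enhancers.

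The rest of the pathway was read from 6 lists ordered by role, with 111 distinct genes measured, of which 21 rose, 28 fell and 62 did not pass. Their median log2 fold change was -0.04, close to the -0.05 over all genes. The shares to set beside these counts, and those of each list below, are 11.8% higher and 13.9% lower over all genes. Among genes brighter than the median they are 19.3% and 20.3%.

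A list of 13 genes held other parts of the destruction complex, where Axin1 and Axin2 act, and regulators outside it such as the tankyrases. Of these 13, 4 rose, 0 fell and 9 did not pass, with a median of 0.12, which is not a value for the complex alone. The tankyrases Tnks2 and Tnks, which mark Axin proteins for breakdown, rose by 0.46 (standard error 0.05) and 0.38 (standard error 0.06) on the log2 scale. Amer1, which recruits the complex to the membrane, rose by 0.34 (standard error 0.05; limma, adjusted p at most 0.00354 for these 3). The count of higher genes was 3 to 7 over the alternatives tried (7 with dim genes left out) and that of lower genes 0 in each of them. Of the 13, 12 were brighter than the median, where 19.3% of genes rose.

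Among beta-catenin and its nuclear partners, 9 of 19 measured genes fell, 3 rose and 7 did not pass, with a median of -0.17. Of the 19, 18 were brighter than the median, where 20.3% of genes fell and 19.3% rose. Ctnnb1, which encodes beta-catenin (named after its values were seen), was 12.75 in both groups, with a log2 fold change of 0.00 and a standard error of 0.05. Tle5, a short Groucho-type protein, fell from 12.25 ± 0.11 to 11.56 ± 0.07 (SD, n = 3 each; log2 fold change -0.69). Pygo1, a coactivator that reads histone marks beside beta-catenin, and Cby1, which binds beta-catenin and takes it from the nucleus, had log2 fold changes of -0.38 and -0.45. Bcl9, the adaptor between beta-catenin and Pygopus proteins, rose by 0.34, and the corepressor Tle4 rose by 0.31 (limma, adjusted p at most 0.00856 for these 5). The kinase Nlk, with a log2 fold change of 0.20, passed in the test of all arrays (adjusted p = 0.04) but in none of the 6 that left out 1 array (adjusted p 0.0593 to 0.124). Coactivators and corepressors stood on both sides. The count of lower genes was 5 without mutant replicate 3, with the replicate block and at an adjusted p of 0.01.

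The secreted inhibitors other than Notum and Dkk1 were split: of 17 measured, 3 rose, 5 fell and 9 did not pass (median -0.09), and 3 were lower at an adjusted p of 0.01. Dkk3, a relative of Dkk1 with a less clear role in the pathway, rose from 7.51 ± 0.07 to 8.17 ± 0.16 (SD, n = 3 each). Sfrp5, a decoy for Wnt ligands, fell from 7.88 ± 0.12 to 6.49 ± 0.22 (SD, n = 3 each; log2 fold change -1.39), while its relative Sfrp1 rose by 0.48. Trabd2b, a protease that inactivates Wnt ligands, had a log2 fold change of -0.49 and Igfbp4 one of -0.56 (limma, adjusted p at most 0.00821 for these 5). Kremen2, a co-receptor of Dkk1, had a log2 fold change of 0.24 and passed (adjusted p = 0.0183), but not without control replicate 2 (0.0592), mutant replicate 1 (0.0622) or mutant replicate 2 (0.0656).

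Of 23 other genes reported as beta-catenin targets in some tissue, 7 fell, 4 rose and 12 did not pass, with a median of -0.09, and 2 were lower at an adjusted p of 0.01. Of the 23, 5 are also on the receptor or the inhibitor list and are counted there too. Among them is Lgr5, with the largest fall of this list (log2 fold change -1.32). Ephb3, an ephrin receptor, fell from 9.63 ± 0.03 to 8.93 ± 0.04 (SD, n = 3 each; limma, adjusted p = 0.000127), and the hyaluronan receptor Cd44 had a log2 fold change of -0.47 (adjusted p = 0.0111). Mycn, Tgif1 and Ccnd1, which respond to several pathways, rose by 0.46, 0.30 and 0.28. Rnf43 and Znrf3, ubiquitin ligases that remove Frizzled and are feedback genes in their own right (named after their values were seen), did not pass: their 95% intervals ran from -0.14 to 0.12 and from -0.22 to 0.05, above the -0.45 that bounds the fall of Axin2.

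Of 23 receptors and transducers, 4 rose, 5 fell and 14 did not pass. The Frizzled receptors Fzd6, Fzd3 and Fzd7 rose by 0.59, 0.60 and 0.36, and Fzd10 had a log2 fold change of -0.44. Ror1 and Lgr5 had the largest falls, with log2 fold changes of -1.72 and -1.32. Of 21 ligand genes and ligand-processing genes, 3 rose, 4 fell and 14 did not pass. Wnt9b and Wnt3 rose by 1.42 and 0.76, while Wnt5a, Wnt11 and Wnt4 had log2 fold changes of -0.90, -0.60 and -0.37 (limma, adjusted p at most 0.00429 for all these genes). Fzd10 and Wnt3 were dimmer than 7.51 in both groups, so whether they lay above the background of the arrays is not known.

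**Figure D4:**
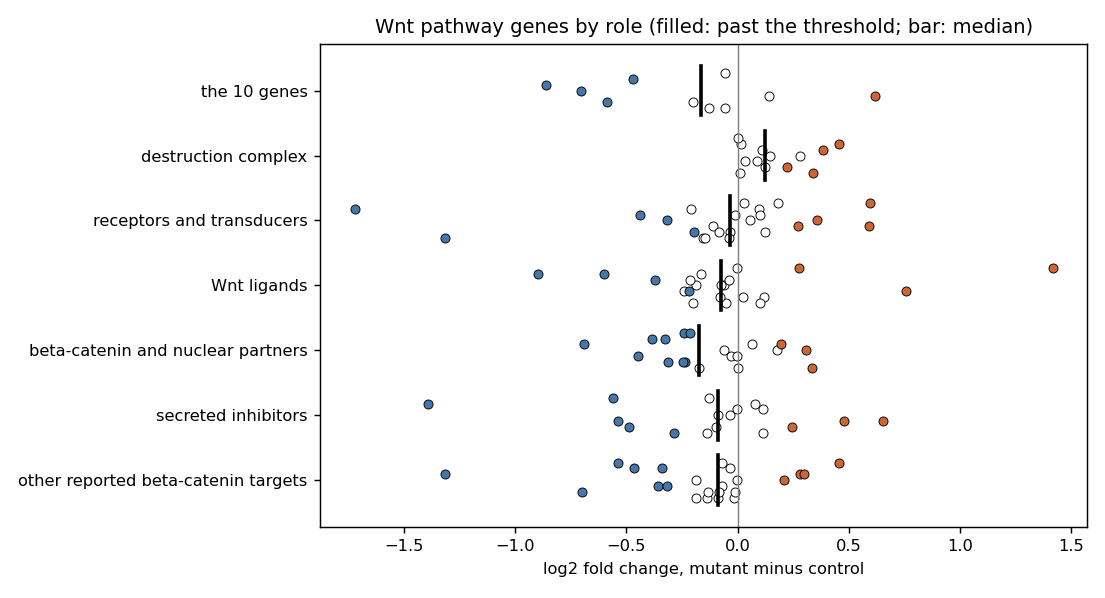
Log2 fold change, mutant minus control (horizontal axis), of the 10 genes and of the genes of 6 pathway lists; orange points passed the threshold as higher, blue as lower, open points did not pass, and black bars are medians. The destruction complex list also holds regulators such as the tankyrases. It has a median of 0.12 with no gene past the threshold as lower, whereas the nuclear partners have a median of -0.17.

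Markers of bud regions and of other cells moved in the same arrays. Of 11 measured ureteric tip markers, 10 fell and 0 rose (median -0.43), with a mean level of 11.13 to 11.20 on control and 10.63 to 10.72 on mutant arrays. All 11 were brighter than the median, where 20.3% of genes fell and 19.3% rose. Of 8 urothelial markers, 6 fell (median -1.04, mean level 7.58 to 8.03 against 6.87 to 7.11), and of 9 dissociation response genes, 5 fell (median -0.47, mean level 10.66 to 10.98 against 10.43 to 10.47). Of 10 cap mesenchyme markers 2 rose, Six2 (log2 fold change 3.29) among them, 1 fell and 7 did not pass (median -0.07). Their mean level was 6.88 to 6.94 on control and 7.20 to 7.23 on mutant arrays, but without Six2 it was 6.88 to 6.90 against 6.85 to 6.88. Of 10 early nephron markers, whose cells also express Lef1 and Dkk1, 2 rose, 2 fell and 6 did not pass (median -0.06), with a mean level of 7.42 to 7.58 against 7.52 to 7.54. The part of these shifts in the values of the 10 genes was not tested.

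Genes outside the 10 with the pattern nearest to 2 of them were looked up among 9671 genes brighter than the median, by the root mean square difference of log2 values over the 6 arrays after each gene was centred on its own mean. Nearest to Axin2 were Mad2l2, Usp2 and Cenpx, with differences of 0.020, 0.021 and 0.025 and log2 fold changes of -0.58, -0.57 and -0.61. Nearest to Dkk1 were Nr6a1, Dcdc2a and Jazf1, with differences of 0.024, 0.037 and 0.038 and log2 fold changes of 0.61, 0.60 and 0.59. With 3 arrays a group, likeness of this kind mostly ranks genes by the size of their change.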

How the data were processed

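Per the submitters' processing notes the authors used RMA and the affy package; versions and build are not stated there. The deposited table holds log2 values for 23309 probe sets on 6 arrays. RMA equalises the arrays' distributions at the level of probes, so a shift of most transcripts alike is largely removed. Array medians of the deposited values still ran from 7.475 (mutant replicate 3) to 7.536 (control replicate 1). The median log2 fold change of all genes was -0.05. Probe sets with exactly 1 symbol in the platform annotation were kept (20728), and the brightest per gene gave 19296 genes. One limma 3.58.1 model (R 4.3.3, lmFit and eBayes) with genotype as its term was fitted, with two-sided p-values and Benjamini-Hochberg adjustment over all genes. Tested on simulated data of 19296 genes for this comparison, it recovered 62% of 50 genes changed by 0.5 and 98% at 1. Far fewer genes were changed there than the 25.8% that pass here, and the noise was drawn independently for each gene. These shares therefore describe the simulation and do not give the power in these data. Figures used matplotlib 3.10.9. The number of arrays limits the precision.

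The 10 genes and all lists were chosen with earlier results of these data known. Named are the members, Dicer1, up to 3 genes per pathway list and direction with the smallest p among those past the threshold, the marker with the smallest p of each marker list with a call, and the 3 genes nearest to Axin2 and to Dkk1. Markers so chosen but not described are Cxcr4, Papss2, Ptprc, Synpo, Upk1b and Ier2, and the ligand Wnt16. The labels state no pairing by replicate number, and the main model used none. The alternatives are given with the closing remarks on processing.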

Additional observations from a re-analysis of the deposited data

How the results depend on the processing

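The falls of Axin2, Nkd1, Nkd2 and Lef1 and the rise of Dkk1 kept their direction and stayed past the threshold under every alternative run. These were 13 each for Axin2 and Nkd1 and 12 each for Nkd2, Lef1 and Dkk1. Nkd2 is dim and was removed by the filter on dim genes. Lef1 passes that filter only through the control group and Dkk1 only through the mutant group, where each is high. That setting thus says nothing about the changes of Lef1 and Dkk1. Each gene has 1 probe set, so averaging probe sets left its values as they were. The replicate block, the filter on dim genes and the variance trend leave the log2 fold change as it is, so they do not test direction. Their log2 fold changes ran from -0.61 to -0.55 (Axin2), -0.92 to -0.77 (Nkd1), -0.52 to -0.40 (Nkd2), -0.79 to -0.58 (Lef1) and 0.59 to 0.65 (Dkk1). Tcf7l1 passed with quantile normalization (-0.21), array weights (-0.21), and, at -0.20 each, with dim genes left out, with the mean of all probe sets and with a variance trend. With 1 array left out it ran from -0.25 to -0.17 and passed without mutant replicate 2. Sp5 ran from -0.229 to -0.0763 with 1 array left out and passed without control replicate 3. The sign of Notum turned with quantile normalization (0.026). The causes were not tested, except that leaving dim genes out tests fewer genes. The number of the 10 genes called lower was 4 or 5 and that called higher 1 under each alternative.

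Over all genes, 2285 rose and 2690 fell. At an adjusted p of 0.01 these counts were 1367 and 1423, and with 1 array left out the count of lower genes ran from 1764 (without mutant replicate 1) to 2973. Median centring gave 2696 higher and 2241 lower genes, turning the larger side. The median log2 fold change of all genes lay between -0.07 and -0.01 under all settings. With the replicate block, 1725 genes were higher and 1878 lower, and the calls of the 10 genes did not change. Same-numbered arrays deviated from their group means with correlations of -0.189, -0.0955 and -0.219 across genes, so the numbers pair nothing here. The changes of the 5 differences between related genes ran from -0.98 to -0.29 over 40 recomputed values. Those recomputed with the mean of all probe sets could not differ, as each gene has 1 probe set. Alternatives for list counts and named genes were added after seeing the data: 174 of 180 list counts stayed within 1.5 times, and 5 of 46 named genes (Nlk, Kremen2, Wnt16, Ptprc and Synpo) lost their call in at least 1. Dim probe sets such as Nkd2, Sp5, Notum, Wnt3, Fzd10, Cd44 and Trabd2b, Dkk1 in control cells and Lef1 in mutant cells cannot be judged against background.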
